A study of Rattus norvegicus with 3 samples.

Results

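The cells described here are macrophages of the injured rat spinal cord in which the mean score of Cd8a, Ms4a4e, Hpgds and Siglec1 was the highest of 4 scores. The 4 scores were set among phagocytes, meaning cells with at least 10 unique molecular identifiers (UMIs, the counted RNA molecules) of Csf1r, Cd68 and Tyrobp together per 10000 UMIs of the cell. Cells with at least 100 UMIs of S100a8 and S100a9 per 10000, or at least 2 UMIs of the cell cycle gene Top2a, were left out of the phagocytes. The level of each gene was log-transformed and standardised over the phagocytes, and a score was the mean over 4 genes. The other scores stood for microglia (Tmem119, P2ry12, Gpr84, Slc2a5), for Mmp12 and Fabp4 macrophages (Mmp12, Fabp4, Fabp5, Pla2g7) and for class II and Lyve1 macrophages (RT1-Db1, RT1-Ba, Clec10a, Lyve1). The rule found 745 Siglec1 Cd8a macrophages among 2959 phagocytes and 5815 cells, which was 25.2% of the phagocytes. The other groups held 808 microglia-score cells, 859 Mmp12/Fabp4 cells and 547 class II/Lyve1 cells.

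The study injected PBS, a hydrogel depot named G-HD or one named MPG-HD at the site of a spinal cord injury in wild type rats aged 6 to 8 weeks. For each condition 5 animals were used, and 1 library of single cells was made from a section of 5 mm around the injury with a 10x Genomics 3′ kit after collagenase and trypsin digestion. How the animals were pooled, how long after injury the tissue was taken and what the hydrogels contain were not stated by the labels. With 1 library per condition no test between conditions is possible, so every difference below is a difference between libraries, and every interval is an exact 95% interval that covers counting error only.

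Macrophages that enter or live in the cord take up debris, myelin and dying cells after injury, alongside the microglia that reside in the parenchyma. Siglec1 (CD169, sialoadhesin) is a sialic acid-binding receptor of tissue macrophages and is also known as an interferon-induced gene. CD8 is best known as the T cell co-receptor for MHC class I, and in rats it is also carried by some macrophages and natural killer cells. C1q, made of the C1qa, C1qb and C1qc chains, starts the classical complement pathway and tags debris and synapses for uptake.

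The PBS library held 1513 barcodes and 16081082 UMIs, the G-HD library 2619 and 26289759, and the MPG-HD library 2339 and 23988263. Between the libraries 21 barcodes were shared, and 1 Siglec1 Cd8a macrophage carried such a barcode. No doublet caller was run and the rule removed no doublets. The Siglec1 Cd8a macrophages had medians of 13516, 13570 and 13157 UMIs per cell in PBS, G-HD and MPG-HD, so depth per cell was alike in the 3 libraries. The other groups differed from them in depth, with medians of 11212.5 UMIs in microglia-score cells, 18869 in Mmp12/Fabp4 cells and 6325 in class II/Lyve1 cells. Levels below are counts per 1000000 UMIs (CPM), from UMIs summed over the cells of a group, in the order PBS, G-HD, MPG-HD.

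Siglec1 Cd8a macrophages were a smaller share of the phagocytes in G-HD than in the other libraries. There were 191 in PBS, 26.6% of phagocytes (interval 23.4 to 30.0). In G-HD there were 248, 20.8% (18.5 to 23.2), and in MPG-HD 306, 29.2% (26.4 to 32.0). The G-HD share was 0.784 times the PBS share (0.646 to 0.952), and the MPG-HD share was 1.40 times the G-HD share (1.18 to 1.66). Between MPG-HD and PBS the ratio was 1.10 (0.914 to 1.32), an interval that includes no difference. Shares of one whole move together: in G-HD the microglia-score share was 0.621 times that in PBS, while the Mmp12/Fabp4 share was 1.65 times as large. Fewer Siglec1 Cd8a macrophages and more Mmp12/Fabp4 cells therefore cannot be told apart from these shares. The size of the difference depended on the choice of cells. With scores standardised within each library the ratio of MPG-HD to G-HD was 1.16, and G-HD still had the lowest share, 22.9%. Counting only the 65 Siglec1 Cd8a macrophages with fewer than 2 UMIs of T, B, oligodendrocyte, Schwann, fibroblast and endothelial markers gave a ratio of 0.830. The limit was put on these macrophages alone, and their shares were taken over all phagocytes. That limit is an absolute count, which deep cells pass less often. Oligodendrocyte markers alone had medians of 2.47 to 3.54 UMIs per 10000 per cell over all Siglec1 Cd8a macrophages. Of all cells that passed the filter, Siglec1 Cd8a macrophages were 13.9%, 10.6% and 14.6%.

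**Figure D1:**
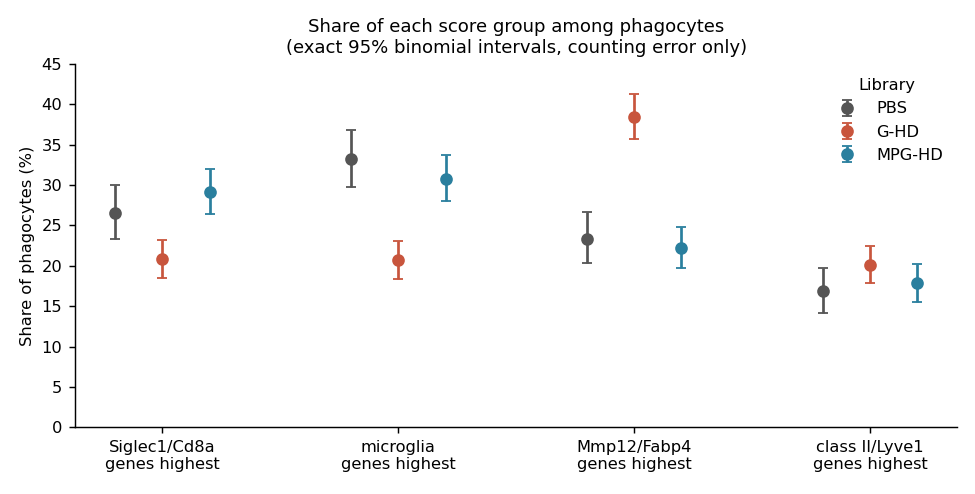
Share of phagocytes (%, y axis) held by each of the 4 score groups in the PBS, G-HD and MPG-HD libraries, with exact 95% binomial intervals for counting error. The Siglec1/Cd8a share was 26.6%, 20.8% and 29.2%, and the Mmp12/Fabp4 share was highest in G-HD at 38.5%.

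The 4 genes of the score were used to choose the cells, so their height in them is a description. Cd8a, the alpha chain of CD8, had 514, 660 and 692 CPM in Siglec1 Cd8a macrophages. In microglia-score cells it had 150, 192 and 156 CPM, in Mmp12/Fabp4 cells 206, 254 and 255 CPM, and in class II/Lyve1 cells 75.4, 142 and 78.0 CPM. Every other group thus also carried Cd8a RNA, at a lower level. Ms4a4e, a membrane-spanning protein of the MS4A family, had 282, 199 and 194 CPM, against 21.1 to 27.4 CPM in microglia-score cells and 96.9 to 123 CPM in class II/Lyve1 cells. Hpgds, the haematopoietic prostaglandin D synthase, had 89.4, 84.9 and 116 CPM, against at most 4.10 CPM in Mmp12/Fabp4 cells and 33.2 to 57.0 CPM in microglia-score cells. Siglec1 had 146, 156 and 157 CPM, and its highest value in another group was 75.5 CPM, in the Mmp12/Fabp4 cells of PBS.

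Fcna, a ficolin that recognises sugars and starts the lectin pathway of complement, was a proposed marker that the score did not use. It had 228, 231 and 199 CPM in Siglec1 Cd8a macrophages, above the 66.7 to 73.4 CPM of microglia-score cells and the 75.6 to 98.1 CPM of Mmp12/Fabp4 cells. Class II/Lyve1 cells had 160, 160 and 227 CPM of Fcna. In MPG-HD Fcna was therefore lower in Siglec1 Cd8a macrophages than in class II/Lyve1 cells.

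C1q was high but not highest in these cells. C1qa had 7640, 7841 and 7702 CPM in Siglec1 Cd8a macrophages and 10415, 10232 and 8515 CPM in microglia-score cells. Class II/Lyve1 cells had 3967 to 4633 CPM and Mmp12/Fabp4 cells 1391 to 2049 CPM. C1qb stood in the same order, with 6938, 7012 and 7261 CPM against 8602 to 9371 CPM in microglia-score cells. C1qc had 4959.5, 5313 and 4871 CPM against 5687, 5872 and 4823 CPM, so in MPG-HD its levels in the 2 groups differed by little. Per cell, the 3 chains together had a median of 193 UMIs per 10000 in Siglec1 Cd8a macrophages, 232 in microglia-score cells, 89.3 in class II/Lyve1 cells and 9.15 in Mmp12/Fabp4 cells. The name C1q-high thus holds against the other macrophage groups and not against microglia-score cells.

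**Figure D2:**
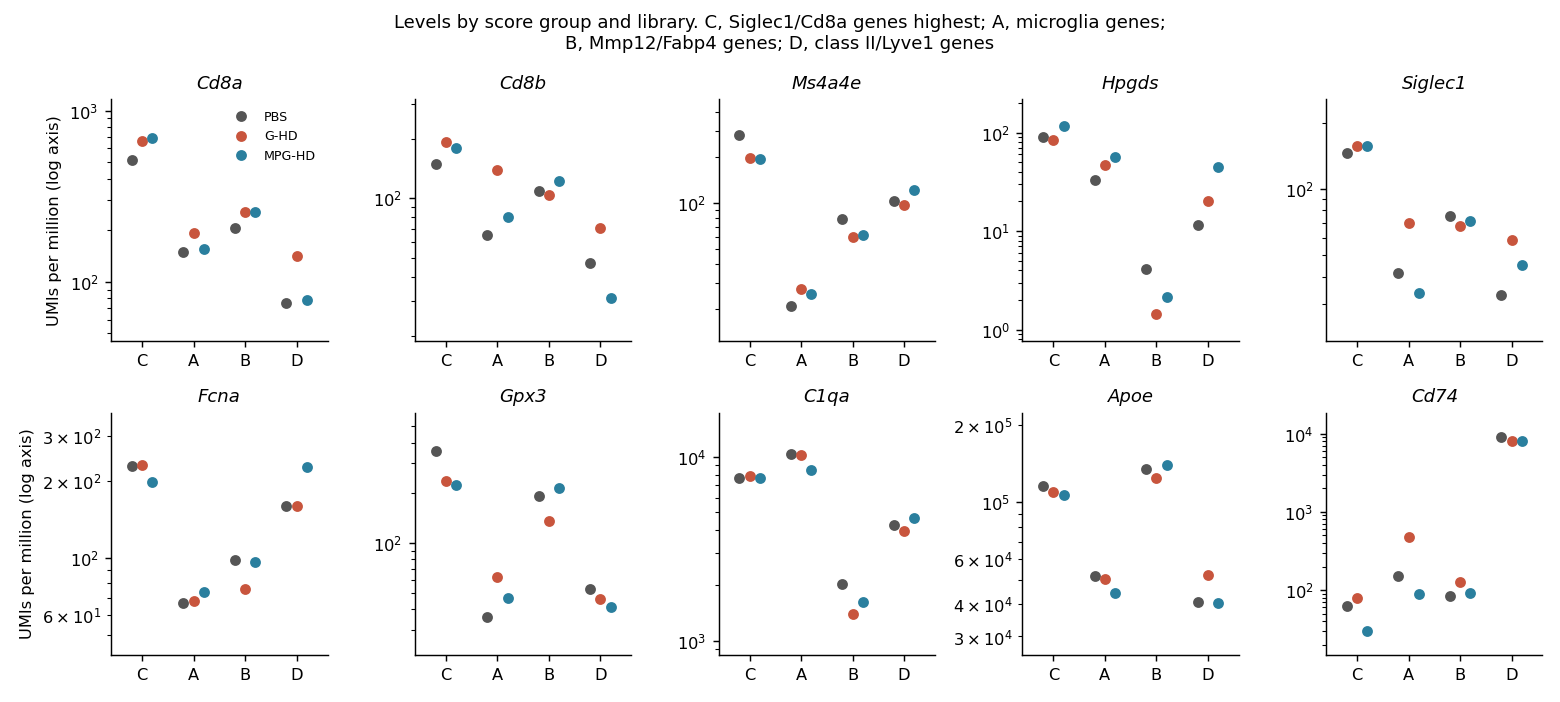
Summed level (CPM, log axis, scale differs by panel) of 10 genes in the Siglec1/Cd8a group (C), microglia-score cells (A), Mmp12/Fabp4 cells (B) and class II/Lyve1 cells (D), 1 point per library. Cd8a, Ms4a4e, Hpgds and Siglec1 chose the cells; C1qa was higher in A than in C in all 3 libraries, and Cd74 was at 8041 to 9105 in D and at most 79.1 in C.

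Choosing the cells again without 1 of the 4 genes gave a level for that gene in cells which the gene itself did not choose. The 4 genes had been put together with earlier results of these data known, so these levels too are a description. Without Cd8a the score chose 699 cells, 617 of them the same, and Cd8a had 434, 557 and 620 CPM there. That was 2.13 to 3.29 times the level in microglia-score cells, 1.87 to 2.12 times that in Mmp12/Fabp4 cells and 2.71 to 4.40 times that in class II/Lyve1 cells. Cd8a thus stayed highest in this group in all 3 libraries. Ms4a4e, left out in turn, was 4.77 to 5.45 times the microglia-score level and 1.14 to 1.63 times the class II/Lyve1 level. Left-out Siglec1 was 1.25 to 2.46 times as high as in any other group. Hpgds was the least distinct against microglia-score cells, at 1.65, 1.13 and 1.20 times their level, and against class II/Lyve1 cells in MPG-HD, at 1.09 times, while it was 13.6 to 23.4 times the Mmp12/Fabp4 level. These are levels of 1 library each, and cells of a library are not replicates.

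Cd8b, the beta chain of CD8, is not a gene of the score and was found in the same cells as Cd8a. It had 148, 192 and 179 CPM in Siglec1 Cd8a macrophages, 65.2, 139 and 79.8 CPM in microglia-score cells, 109, 104 and 122 CPM in Mmp12/Fabp4 cells and 46.9, 70.2 and 31.0 CPM in class II/Lyve1 cells. Both chains had a UMI in 500 of the 745 cells (67.1%), Cd8a alone in 175, Cd8b alone in 14 and neither in 56. Among cells with Cd8a RNA 74.1% also had Cd8b, against 14 of the 70 cells without Cd8a. Depth differs between such cells and its part in this was not tested.

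The CD8 RNA did not come with T cell receptor genes. Cd3e and Cd3g, chains of the T cell receptor complex, had 2 and 0 UMIs in all Siglec1 Cd8a macrophages together, and 4 of the 745 cells had a UMI of any Cd3 gene. In 155 cells of the same libraries picked outside the phagocytes by a T cell marker list, which holds the Cd3 genes and Cd8b, Cd3e had 1228 CPM, Cd8a 549 CPM and Cd8b 243 CPM, with no UMI of Hpgds, Ms4a4e or Fcna. Cd4, which rat macrophages can also carry, was at 6.78 CPM in Siglec1 Cd8a macrophages. Free RNA can give UMIs in cells that do not express a gene, so 928 oligodendrocytes, picked by their markers outside the phagocytes, served as the background. Thinned to 1000 UMIs per cell, Cd8a was found in 42.6% of Siglec1 Cd8a macrophages and 0.337% of oligodendrocytes, and Cd8b in 14.7% and 0.112%. Unthinned, with medians of 13441 and 11655 UMIs per cell, Cd8a was found in 90.6% and 3.34%. Thinned shares of Siglec1, Hpgds, Ms4a4e and Fcna were 13.5%, 9.62%, 17.9% and 19.6% in Siglec1 Cd8a macrophages and at most 0.337% in oligodendrocytes. Cd8a, Siglec1, Hpgds and Ms4a4e chose the Siglec1 Cd8a macrophages, so a gap in these genes follows from the choice. Only Cd8b, Fcna and C1qa had no direct part in it. The oligodendrocytes lay outside the phagocyte gate, which limits their macrophage RNA, so gaps in macrophage genes depend partly on that choice. How far this lowers the background was not tested. C1qa, at 92.4% and 6.19%, had the highest background of these genes.

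A small set of the chosen cells had natural killer cell genes. Of 13 natural killer marker genes, 715 cells had none, 18 had 1, none had 2 to 4, and 12 had 5 to 10. These 12 cells, 3 in PBS, 7 in G-HD and 2 in MPG-HD, all had Cd8a and none had Cd8b, Ms4a4e, Hpgds, Siglec1 or the macrophage receptor gene Csf1r. Their median was 2897.5 UMIs, and they held 98.2% of the UMIs of Nkg7, a cytotoxic granule gene, and 199 of 201 UMIs of the granzyme gene Gzmm. The marker list summed to 308, 267 and 43.2 CPM over all chosen cells and to 2.28, 15.1 and 0.252 CPM without the 12. Values that rest on these cells, such as those of Gzmm, are read below as theirs.

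The chosen cells were not uniform in the score genes. A UMI of all 4 was found in 211 cells (28.3%), of 3 in 316 (42.4%), of 2 in 122 and of 1 in 96 (12.9%). The 96 cells with 1 gene were shallow, with a median of 2512.5 UMIs against 16459 for cells with 4. Folr2, the folate receptor of tissue macrophages, had 336 CPM in cells with 1 score gene and 952 CPM in cells with 4. Pf4, a CXC chemokine, had 305 and 1024 CPM, and Cd8b 70.9 and 190 CPM. Other genes went the opposite way: Fcna, a ficolin gene, had 490 CPM in cells with 1 score gene and 247 CPM in cells with 4, Plac8 508 and 26.2 CPM, and Cd74 185 and 34.4 CPM. With each cell thinned to 1000 UMIs before the score genes were counted, the cells with 0, 1 and 2 of them numbered 258, 351 and 101 and had median depths of 13478.5, 13330 and 14556 UMIs. At these closer depths Folr2 had 807, 845 and 905 CPM, Pf4 847, 857 and 913 CPM and Cd8b 155, 178 and 207 CPM. Fcna then rose with the number of score genes, at 173, 230 and 274 CPM. Cd74, at 53.4, 49.1 and 74.2 CPM, no longer fell with it, while Plac8 still did, at 50.9, 31.6 and 3.47 CPM. Another 17 cells had 3 score genes and 1 had 4, and cells under 1000 UMIs were left out. Of the 96 cells, 57 had Cd8a alone, 27 Hpgds alone, 8 Ms4a4e alone and 4 Siglec1 alone. The 57 included all 12 cells with natural killer genes, which were not taken out of the levels above. The 27 Hpgds cells had a median of 1291 UMIs, and their Fcna was at 1945 CPM and Apoe at 22050 CPM, against 217 and 110321 CPM over all Siglec1 Cd8a macrophages.

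The border of the group was gradual. The score of the chosen genes exceeded the next score by a median of 0.589, and 83 chosen cells stood within 0.1 of the border with 85 cells of other groups just outside it. Just inside, Cd8a had 505 CPM, Ms4a4e 97.4, Hpgds 39.6 and Siglec1 114 CPM, and just outside 422, 137, 44.5 and 88.2 CPM. Over 1000 variable genes that the rule did not use, 62.6% of the Siglec1 Cd8a macrophages were most like the mean of their own group, 23.5% that of microglia-score cells, 11.5% that of Mmp12/Fabp4 cells and 2.42% that of class II/Lyve1 cells. In microglia-score cells 92.5% were most like their own group and in Mmp12/Fabp4 cells 85.0%, so Siglec1 Cd8a macrophages were less sharply bounded than these, and class II/Lyve1 cells, at 53.7%, least of all.

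C1q also split the cells. In 54 of them (7.25%), 16 in PBS, 25 in G-HD and 13 in MPG-HD, the C1q chains together were under 20 UMIs per 10000. The 12 cells with natural killer genes were among them. Lyz2, the lysozyme gene, had 20358 CPM in the 54 cells and 5661 CPM in the others, and Plac8, a gene high in monocytes, 251 and 21.7 CPM. By library, Plac8 had 410 and 1.19 CPM in PBS, 85.7 and 32.1 CPM in G-HD, and 537 and 27.1 CPM in MPG-HD. Apoe was higher in the 54 cells too, at 153418 and 107876 CPM. The 12 cells were not taken out of these levels. Cells of low C1q thus carried more of these genes, and the limit of 20 was set after the spread had been seen.

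**Figure D3:**
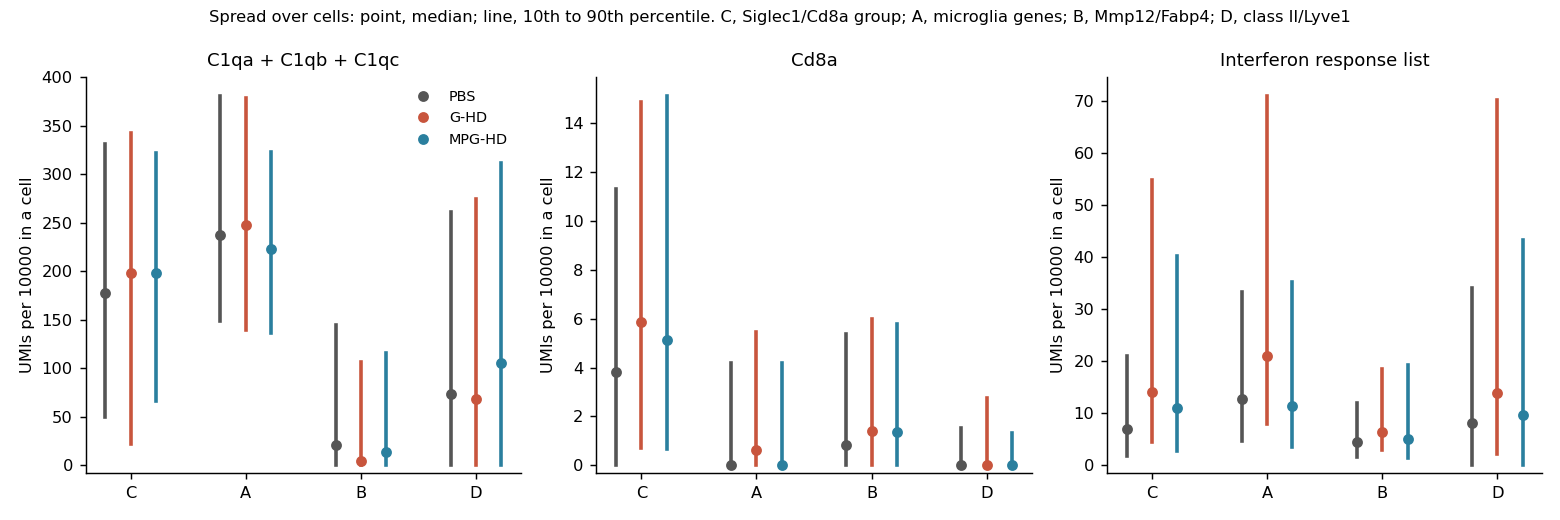
UMIs per 10000 in single cells (y axis) of the 3 C1q chains, Cd8a and the interferon response list, for the Siglec1/Cd8a group (C), microglia-score cells (A), Mmp12/Fabp4 cells (B) and class II/Lyve1 cells (D) in each library; points are medians and lines run from the 10th to the 90th percentile. Median C1q in C was 177 to 198 and in B at most 20.7, and the interferon list's median in C was 6.94 in PBS, 14.0 in G-HD and 11.04 in MPG-HD.

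Lipid and iron genes made up much of the RNA. Apoe, the lipid-carrying apolipoprotein, had 115786, 110199 and 106800 CPM in Siglec1 Cd8a macrophages, and the ferritin genes Ftl1 and Fth1 held 2.71 to 3.15% and 1.98 to 2.51% of their UMIs. Apoe had a median of 995 UMIs per 10000 per cell, between the 372 of microglia-score cells and the 1348 of Mmp12/Fabp4 cells. Ftl1 stood in the same order in each library, at 27075 to 31506 CPM against 14178 to 15786 CPM in microglia-score cells and 45104 to 57808 CPM in Mmp12/Fabp4 cells.

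Against the mean of the 3 other phagocyte groups in the same library, few genes set the Siglec1 Cd8a macrophages apart. Of 6929 genes with at least 50 UMIs in them, 5 (0.0722%) were at least 2-fold higher in all 3 libraries, on log2 of CPM with 20 added. The 5 were the 4 score genes and Gpx3. In the other direction 19 genes (0.274%) were at least 2-fold lower. At 1.5-fold the counts were 21 (0.303%) and 68 (0.981%). The rule chose these cells from the same data, so nothing was tested here.

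Gpx3, a secreted glutathione peroxidase, had 356, 237 and 223 CPM in Siglec1 Cd8a macrophages, 35.8 to 62.3 CPM in microglia-score cells, 135 to 212 CPM in Mmp12/Fabp4 cells and 41.1 to 52.6 CPM in class II/Lyve1 cells. It was the gene outside the score with the largest lowest difference, 1.02 on the log2 scale in MPG-HD, and its PBS difference was 1.74. In MPG-HD, however, Mmp12/Fabp4 cells at 212 CPM came close to the 223 CPM of the Siglec1 Cd8a macrophages.

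Of the 20 leading higher genes outside the score 17 were past 1.5-fold in every library. They did not make up whole lists: 1 of 14 measured cholesterol and LXR pathway genes and 1 of 17 scavenger and efferocytosis genes were higher and none lower, where 0.303% of all genes were higher and 0.981% lower, with medians of -0.02 and -0.11. Abca1, which passes cholesterol to apolipoproteins, had 481, 471 and 457 CPM, above the 202 to 220 CPM of microglia-score cells and close to the 414 to 458 CPM of Mmp12/Fabp4 cells. Pltp, a phospholipid transfer protein, had 2130, 2391 and 1771 CPM and was higher than in every other group in the same library. Gas6, a bridging ligand between dying cells and the receptors Axl and Mertk, had 463, 544 and 440 CPM against at most 344 CPM in any other group. Its receptors did not follow: Axl had 130, 122 and 130 CPM against 204 to 267 CPM in microglia-score cells, and Mertk 51.5, 36.2 and 37.9 CPM against 54.6 to 66.0 CPM there.

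Folr2 had 892, 890 and 791 CPM against 254 to 294 CPM in microglia-score cells, 654 to 778 CPM in Mmp12/Fabp4 cells and 440 to 582 CPM in class II/Lyve1 cells. Pf4 had 888, 921 and 858 CPM against 206 to 290 CPM in microglia-score cells. Fcgrt, the receptor that recycles IgG and albumin, had 319, 407 and 339 CPM, and class II/Lyve1 cells in MPG-HD reached 329 CPM. Rarres1, a retinoid-responsive gene, had 403, 489 and 473 CPM against 311 CPM or less in the other groups. Ifitm2, an interferon-induced membrane protein with close relatives in sequence, had 1740 to 2236 CPM, far above the 295 to 402 CPM of microglia-score cells but alike to the 1886 to 2285 CPM of Mmp12/Fabp4 cells. Aebp1, Hsdl2, Cd8b, Nbl1, Atp1b1, Apobec1, Dlgap5, Spats2l, Tmem37, C1qc and Nradd made up the remainder of the 20, with lowest differences of 0.56 to 0.89 on the log2 scale.

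Among the 10 leading lower genes, Cd74, the invariant chain that loads MHC class II, had 62.2, 79.1 and 29.6 CPM in Siglec1 Cd8a macrophages, below the 8041 to 9105 CPM of class II/Lyve1 cells, which were chosen by class II genes, and also below the 88.8 to 473 CPM of microglia-score cells. RT1-Da, a class II alpha chain, had 17.4, 22.1 and 7.79 CPM against 3611 to 4751 CPM in class II/Lyve1 cells. The monocyte-associated Plac8 had 19.7, 37.1 and 41.0 CPM against 447 to 1147 CPM in class II/Lyve1 cells. S100a11, a calcium-binding protein, had 275, 309 and 218 CPM against 1841 to 2244 CPM in Mmp12/Fabp4 cells, while microglia-score cells, at 11.3 to 28.6 CPM, were lower still. Napsa, Lsp1, Crip1, Coro1a, S100a4 and Mnda were the other 6, and each was highest in class II/Lyve1 cells in PBS.

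**Figure D4:**
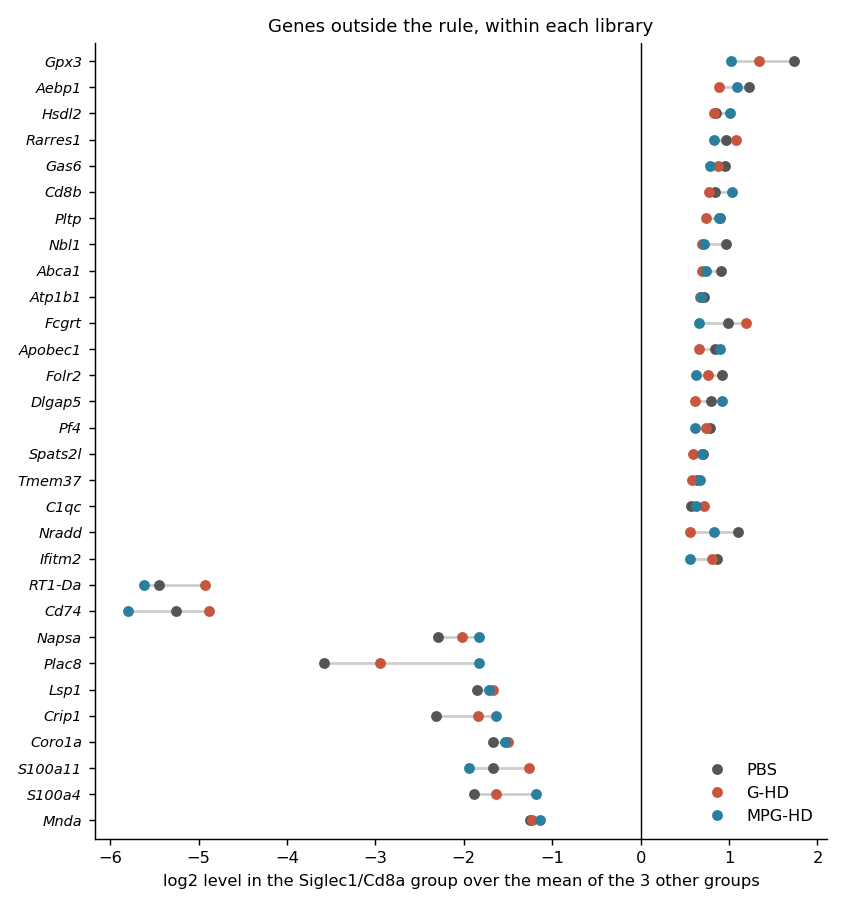
Difference in log2 level (x axis, CPM with 20 added) between the Siglec1/Cd8a group and the mean of the 3 other phagocyte groups for the 20 higher and 10 lower genes outside the score, 1 point per library. Gpx3 lay at 1.02 to 1.74 and Cd74 at -5.80 to -4.88.

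Of 14 measured tissue-resident macrophage genes 3 were at least 1.5-fold higher than the mean of the other groups in all 3 libraries and none lower, where 0.303% of all genes were higher and 0.981% lower, with a median log2 difference of 0.36 against -0.05 over all genes. Against microglia-score cells 6 of the 14 were higher and 1 lower, with a median of 0.61, where 1.78% of all genes were higher and 2.4% lower. The list's medians against Mmp12/Fabp4 and class II/Lyve1 cells were 0.52 and 0.29. Measured here means at least 50 UMIs in the Siglec1 Cd8a macrophages, which 14 of the list's 22 genes in the data had. Genes low in these macrophages could thus drop out of the count of lower genes. The same holds for the other lists compared between groups. Mrc1, the mannose receptor, had 115, 128 and 122 CPM against 12.4 to 23.8 CPM in microglia-score cells, but class II/Lyve1 cells had more, 166 to 332 CPM. The scavenger receptor gene Cd163 was at 1.51 to 4.60 CPM, so this marker of resident macrophages was nearly missing.

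Of 9 measured homeostatic microglia genes 6 were lower than in microglia-score cells and none higher, with a median of -1.18. Of all genes 2.4% were lower and 1.78% higher. The list shares genes with the score that chose the microglia-score cells, but no score gene was among the 9. The same list was higher than in Mmp12/Fabp4 cells for 3 genes and lower for none, where 2.35% and 1.91% of all genes were higher and lower. Tmem119, a gene of the microglia score, had 38.3, 40.5 and 45.5 CPM against 238 to 296 CPM in microglia-score cells and 2.31 to 7.52 CPM in Mmp12/Fabp4 cells. Of 24 lipid-associated phagocyte genes, 8 were lower and none higher than in Mmp12/Fabp4 cells, with a median of -0.37. There 1.91% of all genes were lower and 2.35% higher. Against microglia-score cells 7 were higher and 1 lower, with a median of 0.36, where 1.78% and 2.4% of all genes were. Against class II/Lyve1 cells 12 were higher and none lower, with a median of 0.75, where 1.43% and 2.35% of all genes were. Gpnmb, a glycoprotein of lipid-loaded phagocytes, showed this middle place: 5449, 6464 and 4951 CPM against 2715 to 3309 CPM in microglia-score cells and 8863 to 10876 CPM in Mmp12/Fabp4 cells. Spp1 (osteopontin) had 4164, 3203 and 2572 CPM against 1763 to 2386 CPM in microglia-score cells and 7044 to 11759 CPM in Mmp12/Fabp4 cells.

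Among 18 measured complement genes 8 were higher and 2 lower than in Mmp12/Fabp4 cells, where 2.35% and 1.91% of all genes were, with a median of 0.29. Against microglia-score cells 3 were higher and 1 lower, where 1.78% and 2.4% of all genes were. Of 29 measured lysosome genes 13 were higher and 2 lower than in class II/Lyve1 cells, where 1.43% and 2.35% of all genes were, with a median of 0.61. Of 8 measured monocyte genes 3 were lower and none higher than the mean of the other groups, where 0.981% and 0.303% of all genes were, with a median of -1.05. The monocyte medians against the single groups were -0.50 for microglia-score cells, -0.47 for Mmp12/Fabp4 cells and -1.22 for class II/Lyve1 cells.

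Between libraries, the Siglec1 Cd8a macrophages of G-HD and MPG-HD both carried more interferon response RNA than those of PBS. Both comparisons use the same PBS library, so they are not independent. Of 33 measured interferon response genes 25 had at least 1.5 times their PBS level in G-HD and none was as far below it, where 12.3% of all 8853 genes measured were higher and 8.8% lower. The list's median log2 ratio was 1.06 and that of all genes 0.04. In MPG-HD 23 of 32 exceeded PBS by as much and none was lower, where 10.9% of all genes were higher and 10.4% lower, with a median of 0.93 against 0.01. From G-HD to MPG-HD none was higher and 11 of 33 were lower, where 8.14% and 9.5% of all genes passed, with a median of -0.47 against -0.03. Without the 12 cells with natural killer genes the medians of the 3 comparisons were 1.04, 0.97 and -0.48.

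Ifit3, an antiviral protein that binds foreign RNA, had 13.3 CPM in PBS, 95.7 in G-HD and 30.9 in MPG-HD. Its ratio to PBS was 7.21 (5.08 to 10.5) in G-HD and 2.33 (1.59 to 3.50) in MPG-HD. Ifitm3, which blocks virus entry, had 27.7, 152 and 104 CPM, ratios of 5.49 (4.28 to 7.12) and 3.76 (2.93 to 4.89). In both genes PBS was lowest and G-HD highest. Among the 65 cells with fewer than 2 UMIs of other lineages, Ifitm3 had a log2 ratio of -0.90 in MPG-HD over PBS. Those cells were not matched for depth. Isg15, a ubiquitin-like modifier, had 23.9, 113 and 65.6 CPM, ratios of 4.71 (3.60 to 6.26) and 2.75 (2.08 to 3.68). Mx1, a dynamin-like antiviral GTPase, had 42.1, 144 and 102 CPM, ratios of 3.43 (2.78 to 4.25) and 2.43 (1.97 to 3.03). Irf7, the transcription factor that amplifies the type I interferon response, had 20.1, 61.0 and 38.4 CPM, ratios of 3.04 (2.23 to 4.20) and 1.91 (1.39 to 2.67). All of these stood in the order G-HD, MPG-HD, PBS.

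A few genes of the list or near it were alike in the hydrogel libraries. Rtp4 had 20.8, 58.9 and 61.6 CPM, and its ratio of MPG-HD to G-HD was 1.05 (0.862 to 1.27). Ifi27l2b had 80.0, 209 and 203 CPM, with a ratio of 0.967 (0.872 to 1.07). Ly6e, an interferon-induced membrane protein outside the list, had 43.2, 159 and 138 CPM, ratios to PBS of 3.69 (3.01 to 4.56) and 3.19 (2.60 to 3.94). Siglec1, known to be induced by interferon, was at 146, 156 and 157 CPM, ratios to PBS of 1.07 (0.935 to 1.22) and 1.08 (0.948 to 1.23), but it was one of the genes that chose the cells. Cxcl10, the interferon-induced chemokine, had 14.4, 75.4 and 34.7 CPM, and in MPG-HD 1 cell held 104 of its 138 UMIs.

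**Figure D5:**
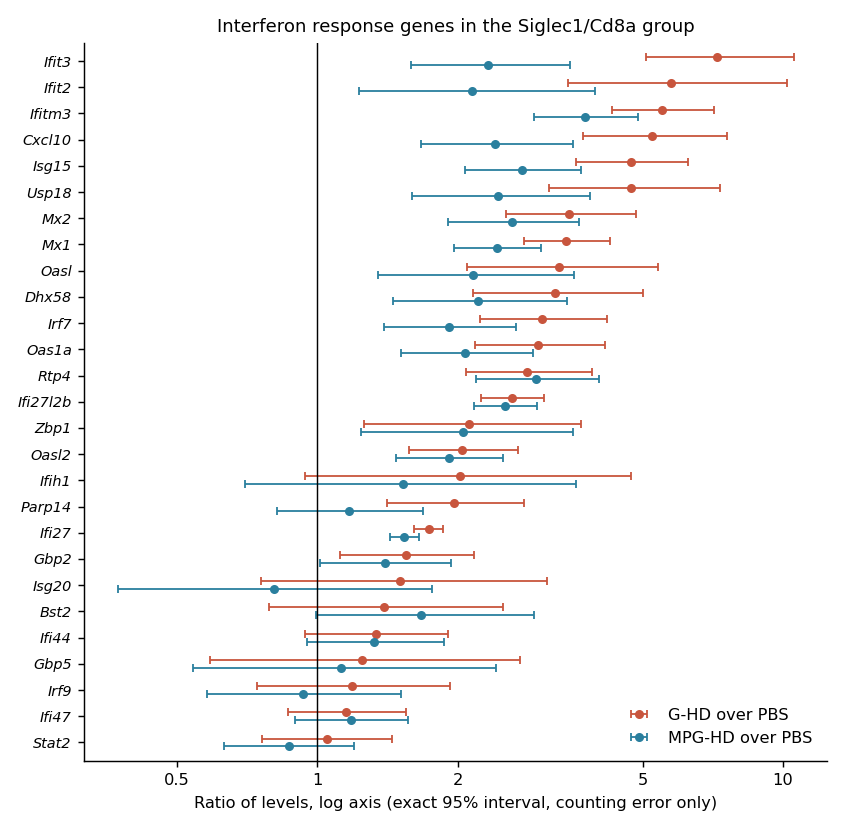
Ratio of the level in G-HD or MPG-HD to that in PBS (x axis, log scale) within the Siglec1/Cd8a group for 27 interferon response genes with at least 10 UMIs in each library; bars are exact 95% intervals for counting error, and both ratios share the PBS library. Ifit3 had the highest G-HD ratio, 7.21, and Stat2 at the bottom lay near 1 in both.

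The difference was spread over cells and was largest in some. The list summed to medians of 6.94, 14.0 and 11.04 UMIs per 10000 per cell, and the 90th percentiles were 21.1, 54.7 and 40.1. The tenth of cells with the highest levels held 39.9%, 48.4% and 39.8% of the list's UMIs. In the other phagocytes G-HD was also higher than PBS. In microglia-score cells 24 of 33 genes were higher and none lower, where 11.6% and 9.01% of all genes were, with a median of 0.92. Mmp12/Fabp4 cells had 23 of 33 higher and 1 lower (14.4% and 8.56% of all genes), with a median of 0.81, and class II/Lyve1 cells 15 of 32 higher and 1 lower (13% and 17.1%), with a median of 0.53. For MPG-HD over PBS the groups gave other values. Siglec1 Cd8a macrophages had 23 of 32 genes higher, and Mmp12/Fabp4 cells 13 of 29 and none lower (9.6% and 11% of all genes), with a median of 0.35. Microglia-score cells had 5 of 32 higher (9.77% of all genes) and 3 lower (9.11%), with a median of 0.07. Class II/Lyve1 cells had 2 of 28 higher (10.2%) and 9 lower (18.3%), with a median of -0.09. Whether the groups differ in this was not tested, since each group has 1 library per condition. The list summed to 975, 2287 and 1773 CPM in Siglec1 Cd8a macrophages and 1624, 3116 and 1658 CPM in microglia-score cells. It summed to 518, 902 and 762 CPM in Mmp12/Fabp4 cells and 1685, 2534 and 1598 CPM in class II/Lyve1 cells. In PBS and G-HD the Siglec1 Cd8a macrophages were thus below microglia-score and class II/Lyve1 cells.

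Of 17 measured chemokine genes 8 passed 1.5-fold upward from PBS to G-HD and none downward, where 12.3% and 8.8% of all genes did, with a median of 0.43. In MPG-HD over PBS 3 of 16 were higher and 3 lower, where 10.9% and 10.4% of all genes were, with a median of -0.10. Ccl4, a CC chemokine, had 400, 814 and 691 CPM, ratios of 2.03 (1.89 to 2.19) and 1.73 (1.61 to 1.86). Ccl7, a monocyte attractant, had 117, 177 and 59.5 CPM, and MPG-HD over G-HD was 0.337 (0.288 to 0.392). The neutrophil attractants Cxcl1 and Cxcl2 were highest in G-HD too, at 2387 and 2447 CPM, against 1538 to 1773 CPM and 1688 to 1873 CPM in the other libraries.

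Il1b, the interleukin-1 beta gene, had 681, 1187 and 777 CPM, a ratio of G-HD to PBS of 1.74 (1.65 to 1.84) and of MPG-HD to PBS of 1.14 (1.08 to 1.21). Tnf went the other way, with 36.8, 24.5 and 16.6 CPM and ratios of 0.667 (0.490 to 0.907) and 0.451 (0.325 to 0.623). Of 16 inflammatory mediators 8 passed 1.5-fold upward from PBS to G-HD and none downward, against 12.3% and 8.8% of all genes, with a median of 0.55. In MPG-HD over PBS 3 of 15 were higher and 2 lower, against 10.9% and 10.4% of all genes, with a median of 0.11. Tgfb1, the repair and fibrosis cytokine gene, had 68.2, 144 and 126 CPM, ratios of 2.10 (1.77 to 2.51) and 1.85 (1.56 to 2.21), and it was also higher in both hydrogel libraries in each of the other groups.

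The score genes themselves differed between libraries in opposite directions. Cd8a was higher in G-HD and MPG-HD than in PBS, with ratios of 1.28 (1.20 to 1.38) and 1.35 (1.26 to 1.44), and Cd8b had ratios of 1.30 (1.14 to 1.47) and 1.21 (1.07 to 1.37). Ms4a4e was lower, at 0.706 (0.634 to 0.785) and 0.688 (0.621 to 0.762). Gpx3 was lower as well, at 0.665 (0.603 to 0.732) and 0.627 (0.571 to 0.688). Hpgds in MPG-HD was 1.36 times its G-HD level (1.17 to 1.59). Cd8a, Ms4a4e and Hpgds helped to choose the cells, so these ratios are a description. In cells chosen without the gene itself, Cd8a had 434, 557 and 620 CPM. Ms4a4e had 228, 160 and 163 CPM in such cells, and Hpgds 67.8, 61.8 and 84.8 CPM. The C1q chains differed little, with all 9 ratios between 0.917 and 1.07.

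At 2-fold, 92 of 5781 genes (1.59%) stood above PBS in G-HD and 34 (0.588%) below. In MPG-HD over PBS 91 of 6014 were higher (1.51%) and 47 lower (0.782%), and in MPG-HD over G-HD 43 of 6248 were higher (0.688%) and 52 lower (0.832%). Abcb10, a mitochondrial transporter tied to haem synthesis, had 9.10, 29.7 and 52.5 CPM, and MPG-HD over PBS was 5.77 (3.78 to 9.21). Cyp2d3, a cytochrome P450 with close relatives in sequence, was high only in MPG-HD among the 3 libraries, with 20.5, 22.4 and 77.6 CPM.

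Among the lower genes Hspa1b, an inducible HSP70 with a near-identical neighbour that makes its counts uncertain, had 51.5, 9.51 and 32.2 CPM. Its G-HD level was 0.184 times that of PBS (0.121 to 0.274), and it was lowest in G-HD in all 4 phagocyte groups. Hexim1, an inhibitor of the elongation factor P-TEFb, had 95.1, 38.6 and 37.2 CPM, ratios of 0.406 (0.325 to 0.505) and 0.391 (0.317 to 0.481). Serping1, the C1 inhibitor, had 65.6, 72.4 and 24.4 CPM, so that MPG-HD over PBS was 0.372 (0.287 to 0.479), and in Mmp12/Fabp4 cells it had 708, 351 and 126 CPM. Gdf15, a stress-induced cytokine, had 224, 181 and 101 CPM, and MPG-HD over PBS was 0.450 (0.395 to 0.511). Both Serping1 and Gdf15 were thus lowest in MPG-HD.

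Some differences lay in genes of the gate or of other cell types. S100a8 and S100a9, which the phagocyte gate capped, had ratios of MPG-HD to G-HD of 0.0455 (0.0144 to 0.110) and 0.0972 (0.0375 to 0.213). They stood at 27.6 and 18.1 CPM in G-HD, beside a neutrophil marker list at 35.2, 88.6 and 34.4 CPM. Cd74 in MPG-HD was 0.375 times its G-HD level (0.299 to 0.468). There 5 of 11 class II genes were lower and none higher, where 9.5% of all genes were lower and 8.14% higher. Among the 65 cells with fewer than 2 UMIs of other lineages the log2 ratio of Cd74 was 0.28 and that of S100a9 0.81. Those cells were not matched for depth. Gzmm, at a ratio of 0.165, came from the 12 cells with natural killer genes. Oligodendrocyte markers summed to 360, 528 and 748 CPM, with 1236 UMIs in 1 MPG-HD cell, and fibroblast markers to 62.9, 139 and 391 CPM, with 864 UMIs in 1 MPG-HD cell. T cell markers other than Cd8b, at 23.9, 23.9 and 27.1 CPM, and B cell markers, at 1.84 to 3.41 CPM, were near 0. The part of this RNA in the differences between libraries was not tested.

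Of 24 lipid-associated genes 2 were higher and none lower in G-HD against PBS, where 12.3% and 8.8% of all genes were. None was higher and 1 lower in MPG-HD against PBS, where 10.9% and 10.4% of all genes were. Of 31 measured lysosome genes 3 were higher and none lower in G-HD against PBS, where 12.3% and 8.8% of all genes were, with a median of 0.015. In MPG-HD against PBS none of 29 was higher and 2 were lower, where 10.9% and 10.4% of all genes were. Lamp1, a lysosomal membrane protein, had 824, 1596 and 973 CPM, a G-HD ratio of 1.94 (1.84 to 2.04), and Ctsl, cathepsin L, 1170, 1856 and 1160 CPM. Ctss, cathepsin S, had 598, 401 and 326 CPM, with ratios of 0.670 (0.622 to 0.721) and 0.545 (0.506 to 0.586). Lyz2 had 7823, 7873 and 4375 CPM, so that only MPG-HD was low among the 3 libraries, at 0.559 (0.548 to 0.571) times PBS. Complement genes as a list had a median of 0.01 in G-HD over PBS and -0.07 in MPG-HD over PBS.

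Of 12 measured heat shock genes 1 was higher and 3 lower in G-HD against PBS, where 12.3% and 8.8% of all genes were, with a median of 0.09. In MPG-HD against G-HD 3 were higher and none lower, where 8.14% and 9.5% of all genes were, with a median of 0.33. Hsph1, an HSP110 chaperone, had 82.2, 133 and 181 CPM, ratios to PBS of 1.62 (1.37 to 1.91) and 2.21 (1.89 to 2.58). Dnaja1, an HSP40 co-chaperone, had 348, 261 and 424 CPM, so that G-HD was lowest for it as for Hspa1b. Of 20 iron and haem genes 6 were higher and 1 lower in G-HD against PBS, where 12.3% and 8.8% of all genes were, with a median of 0.25. In MPG-HD against PBS 4 were higher and 3 lower, where 10.9% and 10.4% of all genes were, with a median of 0.08. Hmox1, which breaks down haem, had 561, 623 and 750 CPM, above the other groups of the same library, whose highest value was 538 CPM.

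The remaining genes named for their ratios were mostly low. Against PBS, G-HD was lower for Hspa2, a member of the HSP70 family (24.3 and 8.28 CPM, ratio 0.341), Arrdc4, an arrestin-related protein (0.290), Luc7l3, a splicing factor (0.478), Idi1, an enzyme of isoprenoid synthesis (0.385), and Taf9, a subunit of the general transcription factor TFIID (0.460). MPG-HD was lower against PBS for Kctd4 (0.280), Wdr91 (0.391), Nol10 (0.341) and Cebpzos (0.323). Wdr91, which acts in endosome maturation, was the most abundant of these 4, at 52.7, 37.1 and 20.6 CPM. MPG-HD was higher than G-HD for Lilrb3a, an inhibitory immune receptor (4.02, 2.08 to 8.53), Id1, an inhibitor of DNA binding by helix-loop-helix factors (3.60, 1.79 to 8.03), and Clec2l, Amz1, Gal3st4 and Rhox5 (2.31 to 4.30). Lilrb3a had 11.7, 3.37 and 13.6 CPM and Id1 10.6, 3.07 and 11.1 CPM, so for both the G-HD library was the low one.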

How the data were processed

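Single cells of 3 libraries, 1 per condition, were analysed from the deposited matrices of UMI counts per gene and barcode, not normalized, per the file headers. Cell Ranger 3.0.2, GRCm38 and mm10, the last 2 being mouse builds, are listed per the submitters' processing notes; the matrix header gives 3.1.0, per the file headers, and the identifiers of all 25199 features are those of rat genes in Ensembl. No coordinates are given, since the rat build is not given in the sources used here.

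Cells needed 200 detected genes or more and a mitochondrial share of UMIs up to 20%, and were scored as the report states. The members and gene lists were chosen with earlier results of these data known. Counts were summed per group and library. Ratios have exact conditional intervals and shares Clopper-Pearson intervals, at 95%. The pseudocount was 20 CPM for the profile, with at least 50 UMIs per gene; lists used at least 10 UMIs and 1.5-fold. Named genes were the score genes and markers, the first 20 higher and 10 lower of the profile, up to 8 per direction and pair of libraries (ranked by the bound nearest 1, with no cell over 25% of the UMIs), and up to 6 per list with the most UMIs. Other list members that the text names, and the genes that set off the cells of low C1q, were chosen after their values were seen. Of 733 list genes, 39 are not among the feature names. Reference cells were non-phagocytes with a UMI of at least 40% of a lineage list. The ratios were tested on simulated data. Python 3.11.15, NumPy 2.4.6, SciPy 1.17.1, pandas 2.3.3 and matplotlib 3.10.9 were used.

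Alternatives to the cell filter, gate, scoring, membership, UMI minimum, weight of cells, scaling, pseudocount and reference were computed. A few genes that the naming rule or the lists include are not reported here.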

Additional observations from a re-analysis of the deposited data

Results flagged for a closer look

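Angptl8, a regulator of lipoprotein lipase, was higher in G-HD than in PBS in microglia-score cells and lower in 2 other phagocyte groups. In Siglec1 Cd8a macrophages it had 34.9 CPM in PBS and 15.3 in G-HD, a ratio of 0.440 (0.305 to 0.627). In microglia-score cells it had 9.43 and 23.4 CPM, a ratio of 2.48 (1.53 to 4.14). Mmp12/Fabp4 cells had 71.4 and 30.0 CPM, a ratio of 0.420 (0.350 to 0.505) on 482 UMIs, so that only the microglia-score cells stood apart from the Siglec1 Cd8a macrophages. Class II/Lyve1 cells had 5 UMIs, and no ratio is given. The intervals cover counting error only, each group has 1 library per condition, and the difference between the groups was not tested.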

How the results depend on the processing

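The share of Siglec1 Cd8a macrophages, the counts of genes, the lists and the named genes were computed again under each alternative, 3 of which (without the 12 natural killer cells, without cells of 1 score gene, without cells over 20 UMIs per 10000 of other lineages) were chosen after seeing the data. Of all values 2701 stayed close to the reported ones, 170 moved and 12 changed direction. The interferon list's median stayed at 1.02 to 2.03 in G-HD over PBS, 0.56 to 1.01 in MPG-HD over PBS and -2.29 to -0.35 in MPG-HD over G-HD. No paired analysis was possible because each condition has 1 library. Leaving out cells with at least 2 UMIs of other lineages kept 65 of 745 cells and moved most. Deep cells pass that absolute limit less often, so these values rest on a small set not matched for depth. The other phagocytes, over which the shares were taken, were not held to that limit. The share ratio of MPG-HD to G-HD became 0.830 (reported 1.40) and that of MPG-HD to PBS 0.651, the log2 ratios of Cd74 and S100a9 in MPG-HD over G-HD became 0.28 and 0.81, and those of Ifitm3 and the monocyte list in MPG-HD over PBS became -0.90 and -1.48. Genes past 2-fold then numbered 27, 19 and 30 (G-HD over PBS, MPG-HD over PBS, MPG-HD over G-HD, reported 126, 138 and 95), and 1 higher and 3 lower against other phagocytes (reported 5 and 19). Those counts were 742, 707 and 610 with at least 10 UMIs, 30, 35 and 18 with at least 200, and 239, 223 and 226 with cells weighing the same. Thinning before scoring gave 202 for G-HD over PBS and 156 for MPG-HD over G-HD, and z-scores within each library gave 150 for the latter, with a share ratio of 1.16. Higher genes numbered 3 without Ms4a4e, 3 without Siglec1, 3 with no cell filter, 1 after thinning, 2 with 50 CPM added, and 54, 44 and 28 against microglia-score, Mmp12/Fabp4 and class II/Lyve1 cells alone. Lower genes numbered 37, 51 and 39 against those groups and 34 with 5 CPM added. Foreign lists changed direction after thinning: natural killer 0.40 and oligodendrocyte -1.42 in MPG-HD over PBS, oligodendrocyte -2.33 in G-HD over PBS, fibroblast -1.31 in MPG-HD over G-HD. Without cells over 20 per 10000, oligodendrocyte was -0.29 in G-HD over PBS and fibroblast -0.87 in MPG-HD over G-HD, and without Hpgds the cycling list was -0.16 in MPG-HD over PBS. Where no construction of the alternative shows it, the cause was not tested.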
